A study of Mus musculus with 21 samples.

Results

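The comparison described here set 3 induced neural stem cell clones against embryonic stem (ES) cells. It used 14 of the 21 arrays of the study: 11 arrays labelled as induced clone 2 (iNS2, 3 arrays), clone 3 (iNS3, 4 arrays) and clone 5 (iNS5, 4 arrays), and 3 arrays labelled as ES cells. The arrays were averaged per line, the 3 clones served as replicates, and 10449 genes measured by probes with 1 gene symbol were tested. All samples were mouse total RNA on Illumina MouseWG-6 V2 bead arrays, and the remaining 7 arrays were of forebrain neural stem cells (NS) and embryonic fibroblasts (MEF), cited below only beside a clone value. The titles of the clones name Oct4-GFP and their source label is Oct4-GiP fibroblasts, cells in which regulatory sequence of Oct4 (Pou5f1) drives a green fluorescent protein and a drug resistance gene. The labels do not give the inducing factors, the passage or the age of the source animals. The ES arrays are titled as controls, and their source label repeats the fibroblast source, so whether the ES line carries the reporter is not stated. Per the design text, repeated arrays of 1 line are technical replicates, so a p-value between arrays measures technical spread only. The comparison over clones covers 3 separately derived lines against 1 ES line, whose single profile was assumed to vary like the clones.

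ES cells keep the pluripotency of the early embryo through a network of transcription factors around Oct4, Sox2 and Nanog, supported by the cytokine LIF and by Wnt and BMP signals. Neural stem cells are grown with EGF and FGF, carry the intermediate filament nestin and radial glia genes, and use Sox2 together with POU factors of the brain in place of Oct4. Sox2 is thus shared by both cell types, whereas its partners and targets differ.

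Levels are log2 intensities after background correction and quantile normalisation (neqc), and detection of a gene on an array means a scanner detection p-value below 0.01. The 14 arrays each detected 14941 to 16021 probes. A difference is the mean of the 3 clone profiles minus the ES profile on the log2 scale, with its standard error (SE) from limma. A gene was called where its limma p, adjusted by Benjamini-Hochberg over all genes tested, was below 0.05. Where a gene was not detected on some or all arrays of the dimmer side, its fold is a lower bound set by the dimmest detected probes and is given as "at least". Levels of different genes are not comparable with each other.

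All 8 ES markers (Pou5f1, Nanog, Zfp42, Esrrb, Dppa5a, Tdgf1, Fgf4 and Utf1) were lower in the clones, and their summed intensity lay between 107 and 201 on the clone arrays, against 68361 to 69561 on the ES arrays. All 7 tested neural stem cell markers (Nes, Olig1, Olig2, Fabp7, Sox9, Sox21 and Slc1a3) were higher, with summed intensities of 61244 to 76267 in the clones and 1039 to 1147 in ES. The other marker listed, Pou3f2, was not tested. The brightest genes weigh most in such sums, here Olig1 and Slc1a3. Of 7 tested fibroblast markers, none was detected on all clone arrays and 1 (Thy1) on all ES arrays. Prrx1 was detected on 8 clone arrays and 1 ES array and did not pass (difference 0.54). The other 6 were detected on no clone array. Only Thy1 was called, lower in the clones (-3.02). The summed intensities of the fibroblast markers were 70 to 131 in the clones and 229 to 273 in ES. Bulk RNA cannot tell fewer cells of a type from less RNA per cell. Arrays iNS5 replicates 2 to 4 shared slide 3 with the ES arrays, whereas iNS2 and iNS3 shared no slide with ES.

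Of 10449 genes, 4597 were called (44.0%). In the clones 2248 were higher (21.5%) and 2349 lower (22.5%), and the median difference over all genes was -0.03. A difference of at least 1 log2 unit was found for 1844 of the higher genes (17.6% of all genes) and 1868 of the lower genes (17.9%). Genes detected on all 11 clone arrays and on no ES array made up 570 of the calls, and genes detected on all 3 ES arrays and on no clone array made up 728. Each of the 4597 called genes lay on the same side of ES in all 3 clones. The spread between clones enters the call as its error, so this agreement largely follows from the call itself. Without clone 2, which left 2 replicates, 1203 genes were higher and 1169 lower. The SD between clone means had a median of 0.20 over genes, and the SD between ES arrays one of 0.10.

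**Figure D1:**
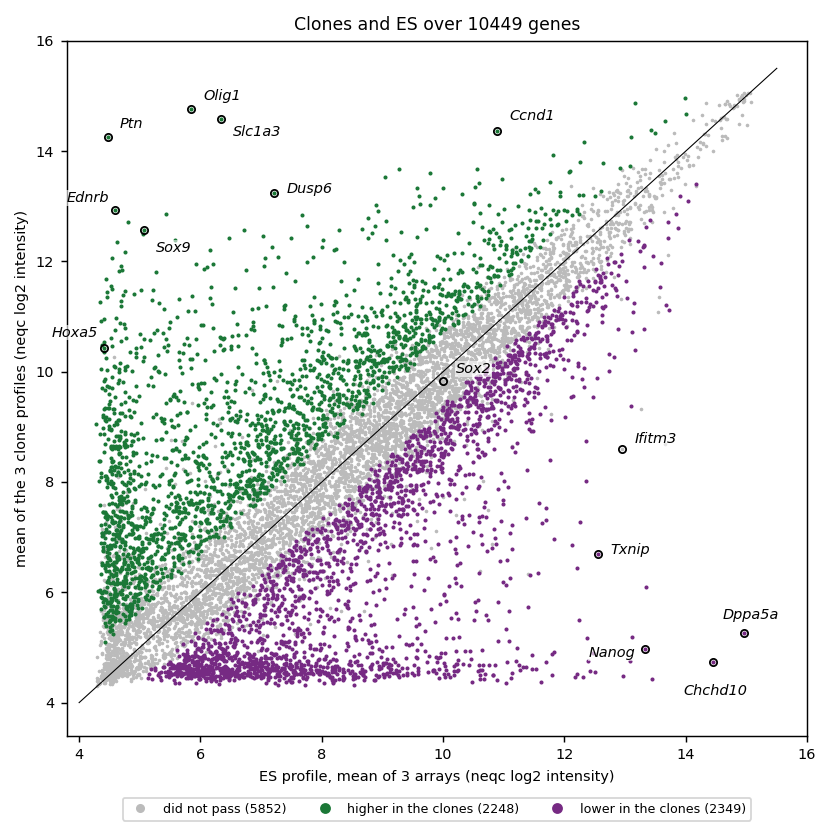
Mean log2 level of the 3 clone profiles (vertical) against the ES profile (horizontal) for each of 10449 genes, coloured by whether the gene was higher (2248) or lower (2349) in the clones or did not pass. Ptn, Olig1 and Slc1a3 lie at the upper left, Chchd10, Dppa5a and Nanog at the lower right, and Sox2 near the diagonal.

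Single clones were set against ES with limma's treat, which tests for changes beyond 2-fold, here with technical spread only. In iNS2, 1702 genes were higher (16.3%) and 1597 lower (15.3%). In iNS3, 1845 were higher (17.7%) and 1657 lower (15.9%), and in iNS5, 1806 were higher (17.3%) and 1705 lower (16.3%). These 3 comparisons share the ES arrays. On slide 3 alone, which held iNS5 and ES arrays together, 1783 genes were higher (17.1%) and 1695 lower (16.2%).

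Among genes detected on every clone and ES array, the largest rise was that of Olig1, a transcription factor of the oligodendrocyte lineage and of cultured neural stem cells. Its level lay between 14.58 and 14.91 (median 14.81) on the clone arrays, against 5.91, 5.53 and 6.11 on the ES arrays, a difference of 8.92 ± 0.17 (SE, 3 clones against 1 ES profile; adjusted p = 0.000465) or 485-fold. All 11 clone arrays stood far above the 3 ES arrays, and an F test over the clones did not pass (limma, adjusted p = 0.573). Slc1a3, the glial glutamate transporter, lay between 14.45 and 14.77 (median 14.57) on the clone arrays, against 6.24, 6.42 and 6.33 on the ES arrays (difference 8.24 ± 0.17, 303-fold, adjusted p = 0.000465). Again no clone array came near the ES arrays.

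The next 10 genes of this kind by difference were all called. Igfbp3, which binds insulin-like growth factors, differed by 6.06 ± 0.47 (66.5-fold), Chst7, a sulfotransferase of proteoglycan chains, by 6.03 ± 0.30 (65.3-fold), and Dusp6, a phosphatase that damps ERK signalling, by 6.03 ± 0.38 (65.3-fold). Sdc3, a neural heparan sulfate proteoglycan, differed by 5.96 ± 0.20 (62.2-fold), Sox11, a neural SOX factor, by 5.85 ± 0.17 (57.6-fold), and Bmp1, a protease that processes collagens, by 5.78 ± 0.16 (55.1-fold). Trib2, a pseudokinase, differed by 5.74 ± 0.17 (53.5-fold), Ifi27 by 5.68 ± 0.48 (51.4-fold), Ppp1r3c, which directs glycogen synthesis, by 5.51 ± 0.52 (45.6-fold) and Adap1 by 5.42 ± 0.21 (42.9-fold). All had adjusted p-values between 0.000465 and 0.00313.

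Of the genes detected on all clone arrays and on no ES array, Ptn had the largest bound. It encodes pleiotrophin, a secreted growth factor of radial glia. Its level lay between 14.18 and 14.33 (median 14.27) on the clone arrays, against 4.44, 4.47 and 4.50 on the ES arrays, at least 460-fold higher (difference 9.79 ± 0.16, adjusted p = 0.000465). The 11 clone arrays spanned little, and the ES arrays lay at the background level. Ednrb, an endothelin receptor of glial and neural crest cells, lay between 12.60 and 13.24 (median 12.92) on the clone arrays, against 4.47, 4.70 and 4.62 on the ES arrays and was at least 182-fold higher (8.33 ± 0.23). Tnc, the matrix protein tenascin C of the stem cell niche, lay between 12.55 and 12.91 (median 12.68) on the clone arrays, against 5.09, 4.64 and 4.70 on the ES arrays and was at least 158-fold higher (7.90 ± 0.18). Sox9, a SOX factor needed for neural stem cells and glia, was at least 143-fold higher (7.51 ± 0.34), and its ranges likewise did not touch. Trim9, a brain ubiquitin ligase, was at least 122-fold, Plat, the tissue plasminogen activator, at least 107-fold, Tril at least 100-fold and Rfx4, a brain regulatory factor, at least 90.6-fold higher.

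Of the genes detected on all arrays, Txnip, which binds thioredoxin and limits glucose uptake, fell furthest. It lay between 6.54 and 6.93 (median 6.69) on the clone arrays, against 12.62, 12.54 and 12.50 on the ES arrays, a difference of -5.85 ± 0.17 (57.8-fold lower, adjusted p = 0.000465), and no clone array reached the ES arrays. The next were Apoc1, an apolipoprotein (-5.66 ± 0.18, 50.6-fold lower), Klf5, a self-renewal factor of ES cells (-5.26 ± 0.27, 38.5-fold), Rbpms, an RNA-binding protein (-5.20 ± 0.24, 36.9-fold) and Slc7a3, a transporter of arginine and lysine (-5.11 ± 0.46, 34.6-fold). Gsta4 (31.5-fold), Fah (29.6-fold), Igf2bp3 (29.1-fold), Rai14 (28.9-fold), Tgm2 (26.2-fold), Gstm2 (22.3-fold) and Pdlim1 (20.8-fold) followed, of which Gsta4 and Gstm2 encode glutathione transferases and Fah the last enzyme of tyrosine breakdown. Without clone 2, Igf2bp3 no longer passed (adjusted p = 0.0753), nor without clone 5 (adjusted p = 0.0542).

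Of the genes detected on all ES arrays and on no clone array, Chchd10, a protein of the mitochondrial intermembrane space, had the largest bound. It lay between 4.44 and 5.20 (median 4.73) on the clone arrays, against 14.44, 14.40 and 14.50 on the ES arrays, at least 531-fold lower (-9.71 ± 0.24, adjusted p = 0.000465). Its clone levels were at background, whereas NS lay between 6.26 and 6.94. Tfcp2l1, a naive pluripotency factor, lay between 4.31 and 4.82 (median 4.41) on the clone arrays, against 13.48, 13.40 and 13.44 on the ES arrays and was at least 264-fold lower (-9.0 ± 0.17). Laptm5, a lysosomal protein best known from blood cells, was at least 205-fold lower, Ooep, an oocyte and early embryo protein, at least 191-fold, Zfp42 (Rex1) at least 138-fold, Fbxo15, an early target of Oct4, at least 135-fold, Tfap2c at least 131-fold and Sall4 at least 128-fold.

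Of 22 core pluripotency factors listed, 19 were tested, and 18 of these fell in the clones, none rose and Sox2 alone did not pass. Their median difference was -5.26 (-5.21 with undetected genes at their bounds), against -0.03 over all genes, of which 22.5% fell. A gene needed to be detected in only 1 of the 6 lines to be tested, so members that no line expressed are not counted. Genes expressed on 1 side only enter the test through that side, here and in every list below. Counts of all lists stand beside shares over all genes of 21.5% higher and 22.5% lower. List counts without clone 2 stand beside fewer calls over all 10449 genes, 1203 higher and 1169 lower. Those without clone 5 stand beside 2583 and 2565, and those without clone 3 beside 2112 and 2220. A list count that drops without clone 2 thus partly follows the drop over all genes. Pou5f1, the Oct4 gene, lay between 4.69 and 5.73 (median 5.19) on the clone arrays, against 13.15, 13.12 and 13.09 on the ES arrays, at least 202-fold lower (-7.92 ± 0.20, adjusted p = 0.000465). It was detected on 3 of 11 clone arrays, at levels close to background. Nanog lay between 4.75 and 5.52 (median 4.87) on the clone arrays, against 13.34, 13.27 and 13.37 on the ES arrays, at least 242-fold lower (-8.36 ± 0.19), with 1 clone array above background. Zfp42 lay between 4.38 and 4.81 (median 4.51) on the clone arrays, against 12.44, 12.57 and 12.49 on the ES arrays and Sall4 between 4.48 and 5.30 (median 4.67) on the clone arrays, against 12.35, 12.37 and 12.45 on the ES arrays, and the ranges of both genes were far apart.

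Esrrb, an orphan nuclear receptor of the naive network, stayed detected on 9 of 11 clone arrays. It lay between 5.11 and 6.87 (median 6.30) on the clone arrays, against 13.26, 13.37 and 13.38 on the ES arrays, at least 148-fold lower (-7.23 ± 0.60, adjusted p = 0.00231). Its clone levels were ordered by line, with 6.56 to 6.87 in iNS2, 6.10 to 6.44 in iNS3 and 5.11 to 5.46 in iNS5 (F test, adjusted p = 3.42e-10). Klf4 lay between 5.52 and 6.87 (median 6.04) on the clone arrays, against 10.13, 9.95 and 10.21 on the ES arrays, 15.8-fold lower (-3.98 ± 0.47, adjusted p = 0.00542), and Klf2, which serves beside it, was at least 121-fold lower. Tbx3 was at least 37-fold, Nr5a2 at least 19.5-fold, Prdm14 at least 5.92-fold and Dppa4 at least 113-fold lower. Smaller changes were those of Mybl2, a cell cycle factor (6.06-fold lower), and Sall1 (2.24-fold lower).

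Sox2 lay between 8.80 and 10.42 (median 10.10) on the clone arrays, against 10.13, 9.98 and 9.89 on the ES arrays, a difference of -0.18 ± 0.56 (adjusted p = 0.822), and here the groups overlapped. The clones differed from each other (F test, adjusted p = 1.19e-10), with 10.02 to 10.13 in iNS2, 8.80 to 9.24 in iNS3 and 10.23 to 10.42 in iNS5. The iNS3 arrays lay below all ES arrays and the iNS5 arrays above them. On slide 3, iNS5 stood 0.33 above ES (limma, adjusted p = 0.00864), and without clone 3 the difference over clones was 0.21 (adjusted p = 0.514). Myc, an oncogene used in many reprogramming mixtures, was higher in the clones. It lay between 5.99 and 6.57 (median 6.21) on the clone arrays, against 4.77, 4.70 and 4.43 on the ES arrays, at least 1.71-fold higher (1.56 ± 0.16, adjusted p = 0.00401), and was detected on no ES array.

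**Figure D2:**
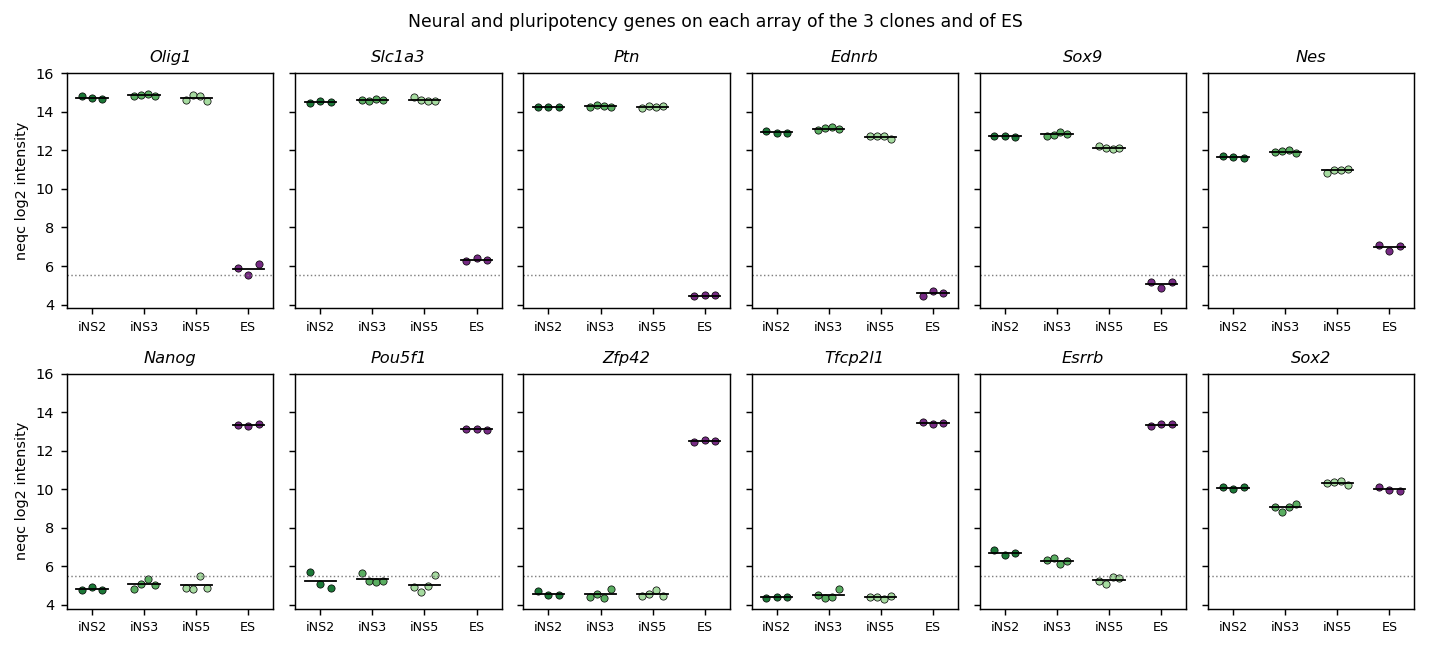
Log2 intensity of 12 genes on each array of iNS2, iNS3, iNS5 and ES, with the mean of each line as a bar and the highest detection floor of these arrays as a dotted line. The 6 neural genes stand far above ES in every clone, 5 pluripotency genes far below, and Sox2 overlaps ES.

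Of 37 other genes associated with pluripotency, 30 were tested, and 27 fell, 1 rose and 2 did not pass (median difference -4.96, or -4.31 with bounds). Dppa5a, an RNA-binding protein of ES cells, lay between 4.78 and 5.91 (median 5.18) on the clone arrays, against 14.98, 15 and 14.92 on the ES arrays, at least 705-fold lower (-9.70 ± 0.33, adjusted p = 0.000558). It had the largest bound of the listed genes, although 4 of 11 clone arrays were above background. Trim71, which acts with the Lin28 pathway, was at least 50.4-fold lower, Dppa3 (Stella) at least 36.3-fold, Tdgf1 (Cripto), the Nodal co-receptor, at least 27.6-fold, and Icam1 at least 23.1-fold. Alpl, the alkaline phosphatase used to stain ES colonies, remained detected in all clones but was 11.3-fold lower. Upp1, an enzyme of uridine breakdown, was 13.2-fold lower. The exception was Jam2, a junctional adhesion molecule, 2.78-fold higher by its brightest probe (1.47 ± 0.23, adjusted p = 0.0115). The mean of its probes instead gave -0.57 (adjusted p = 0.045), and without clone 2 it did not pass (adjusted p = 0.0605). Slc2a3, a glucose transporter, and Mt1, a metallothionein, did not pass.

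Genes linked to the primed state or to early neural competence did not move as one. Of 16 listed, 7 were tested: Pou3f1, Sox3, Sox11, Sox4 and Sall2 rose, whereas Otx2 and Dnmt3b fell. Sall2, a spalt factor, was 25.3-fold higher (4.66 ± 0.34), and Otx2, a factor of the epiblast and anterior brain, at least 8.27-fold lower (-3.74 ± 0.16) with NS at 6.62 to 6.81. Pou3f1 was 8.87-fold higher (adjusted p = 0.0454), but not without clone 2 (adjusted p = 0.113) or clone 3 (adjusted p = 0.0529). All 4 tested of 15 genes of the two-cell-like state fell, led by Zscan4c, at least 6.31-fold lower. In the germline list 17 of 34 genes were tested, of which 15 fell and 2 rose (median -2.37, or -1.53 with bounds). Over all genes tested 22.5% fell and 21.5% rose. Members of both lists could enter the test through ES alone, so these counts partly follow from the detection filter. Tdrd12, a piRNA pathway protein, was at least 22.8-fold lower, Rhox5, a homeobox gene of the X chromosome, 20.7-fold and Rec8, the meiotic cohesin, at least 17.4-fold lower. Tdrkh, another piRNA pathway protein, was 10.4-fold higher (3.38 ± 0.27, adjusted p = 0.00213), and Brdt passed narrowly (adjusted p = 0.0483), but not without clone 2 (adjusted p = 0.125).

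Upstream sequence was matched from RefSeq (build GRCm38.p6) for 8421 of the 10449 tested genes, as the 250 bases before the first listed start. It was searched on both strands for ATGCNAAT, the octamer letters bound by POU factors with 1 base left free, and for a joined motif in which the SOX letters CATTGT are followed, after 1 free base, by the POU letters ATGCNAA. Of 210 genes picked by the naming rules given below that had a window, 14 held a match. Over all windows 2.28% held the octamer letters. The windows printed here are those of 5 of the 14, chosen after the matches were seen: Nanog, Zfp42 and Chchd10 from the ES side, and Hes5 and Tnc from the clone side. They lie at chr6:122707239-122707488 (Nanog, plus strand), chr8:43307010-43307259 (Zfp42, minus strand), chr10:75932880-75933129 (Chchd10, plus strand), chr4:154960673-154960922 (Hes5, plus strand) and chr4:64047016-64047265 (Tnc, minus strand). Each reads 5′ to 3′ towards the start, and capitals mark the matched letters.
Nanog: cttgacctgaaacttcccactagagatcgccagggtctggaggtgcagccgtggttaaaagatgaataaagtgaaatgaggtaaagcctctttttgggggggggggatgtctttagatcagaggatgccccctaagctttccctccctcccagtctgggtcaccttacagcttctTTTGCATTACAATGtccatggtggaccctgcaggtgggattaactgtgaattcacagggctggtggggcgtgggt
Zfp42: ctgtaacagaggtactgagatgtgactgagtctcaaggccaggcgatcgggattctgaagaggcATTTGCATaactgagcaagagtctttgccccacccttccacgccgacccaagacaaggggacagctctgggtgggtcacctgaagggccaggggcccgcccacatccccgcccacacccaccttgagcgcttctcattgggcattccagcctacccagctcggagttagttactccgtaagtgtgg
Chchd10: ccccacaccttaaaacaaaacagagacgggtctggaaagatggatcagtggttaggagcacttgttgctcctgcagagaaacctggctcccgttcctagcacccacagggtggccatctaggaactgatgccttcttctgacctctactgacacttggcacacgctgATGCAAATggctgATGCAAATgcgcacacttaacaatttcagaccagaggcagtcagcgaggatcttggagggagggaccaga
Hes5: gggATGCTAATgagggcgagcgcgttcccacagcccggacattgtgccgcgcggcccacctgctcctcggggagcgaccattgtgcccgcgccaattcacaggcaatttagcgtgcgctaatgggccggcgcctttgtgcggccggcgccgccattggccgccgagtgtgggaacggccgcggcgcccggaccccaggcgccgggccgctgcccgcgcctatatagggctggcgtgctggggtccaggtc
Tnc: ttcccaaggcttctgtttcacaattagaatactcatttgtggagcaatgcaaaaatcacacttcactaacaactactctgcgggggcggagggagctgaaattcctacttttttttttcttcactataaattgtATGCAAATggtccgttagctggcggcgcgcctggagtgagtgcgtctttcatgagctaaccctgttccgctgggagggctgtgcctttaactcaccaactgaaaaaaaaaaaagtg

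The match of Nanog begins 75 bases before the start and is the SOX and POU pair, written on the opposite strand. It was the only such match in 8421 windows (0.0119%), and it does not include the full octamer letters. Chchd10 holds the octamer letters at 83 and again at 70 bases before the start, Zfp42 at 186 on the opposite strand, Hes5 at 247 and Tnc at 116. Octamer letters stood in 2.56% of the 429 windows of genes detected in the clones only, in 2.06% of the 533 windows of genes detected in ES only and in 2.28% of all windows. By list, they stood in 5 of 32 windows of neural stem and radial glia genes (15.6%), in 1 of 27 of POU, SOX and NFI factors (3.7%), in 1 of 13 each of core pluripotency factors and epithelial adhesion genes (7.69%), and in 0 of 18 of the other pluripotency genes and 0 of 13 germline genes. These small counts carry no test. Matches are a description of the letters and not of binding.

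The same windows differed in CpG content. Genes detected in ES only had a median of 8 CpG dinucleotides in 250 bases, against 15 for genes detected in the clones only and 16 for all tested genes. A window with 5 CpG or fewer was found for 36.0% of the genes detected in ES only, 23.3% of those detected in the clones only and 13.2% of all. Called genes detected on both sides had medians of 17 whether higher or lower in the clones. Of the windows shown, Hes5 holds 32 CpG, Zfp42 9, Tnc 8, Chchd10 5 and Nanog 3. These shares and medians carry no test.

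**Figure D3:**
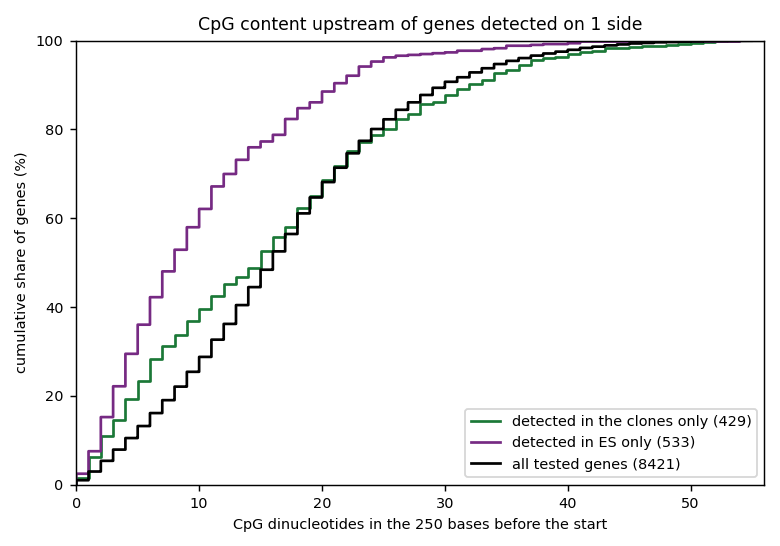
Cumulative share of genes (vertical, in percent) by the number of CpG dinucleotides in the 250 bases before the start, for genes detected in the clones only (429), in ES only (533) and all tested genes (8421). The curve of genes detected in ES only lies to the left, with a median of 8 against 16 for all genes.

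Of 44 neural stem and radial glia genes, 37 were tested. In the clones 35 rose, none fell and Hes1 and Mfge8 did not pass, with a median difference of 4.07 (3.44 with bounds). Nes, the nestin gene, lay between 10.84 and 12 (median 11.64) on the clone arrays, against 7.07, 6.80 and 7.04 on the ES arrays, 23.3-fold higher (4.54 ± 0.43, adjusted p = 0.00318). The clones kept an order, iNS3 highest and iNS5 lowest, and all lay well above ES. Egfr, the receptor of the mitogen EGF, lay between 12.27 and 12.54 (median 12.39) on the clone arrays, against 5.09, 5.64 and 6.02 on the ES arrays and was at least 106-fold higher by its brightest probe (6.80 ± 0.17), although 2 of 3 ES arrays were above background and another probe was above background on all 3. Olig2 lay between 7.77 and 9.16 (median 8.91) on the clone arrays, against 4.65, 4.52 and 4.43 on the ES arrays (at least 9.14-fold higher) and Fabp7, a fatty acid binding protein of radial glia, between 7.58 and 9.06 (median 8.22) on the clone arrays, against 4.69, 4.48 and 4.77 on the ES arrays (at least 7.26-fold). Both were detected on every clone array and no ES array.

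Among other members of that list, Bcan, the proteoglycan brevican, was at least 68.2-fold higher, Cspg5, neuroglycan C, at least 63.8-fold, Ptprz1, a receptor phosphatase that binds pleiotrophin, at least 61.7-fold, Ntrk2, a neurotrophin receptor, at least 54.6-fold, and Gpm6a, a membrane glycoprotein, at least 45.6-fold. Vim, the intermediate filament vimentin, was already bright in ES (9.52, 9.75 and 9.58) and was 10.8-fold higher in the clones (12.91 to 13.36). Hes1, the Notch target that ES cells also use, lay between 8.46 and 9.62 (median 8.75) on the clone arrays, against 9.43, 9.36 and 9.32 on the ES arrays and overlapped ES (-0.42 ± 0.46, adjusted p = 0.50). Mfge8 overlapped as well.

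In the list of POU, SOX and NFI factors and their partners, 26 of 34 tested genes rose, Id4 fell and 7 did not pass (39 listed, median 3.26, or 2.99 with bounds). The nuclear factor I genes, which act in gliogenesis, were higher for Nfix (39.5-fold), Nfia (at least 19.4-fold) and Nfib (18.8-fold), whereas Nfic differed by 0.49 and did not pass. Zic1, a zinc finger factor of the dorsal neural tube, was at least 21.2-fold higher. Among the ID inhibitors of bHLH factors, Id3 was at least 17.8-fold higher and Id4 at least 1.47-fold lower, with Id4 at background on every clone array.

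In the astrocyte list 11 of 17 tested genes rose, 1 fell and 5 did not pass. Without clone 2, 7 rose and 0 fell, and the lower count was also 0 without clone 3 and 2 without clone 5. Acsbg1, an acyl-CoA synthetase of brain, was at least 33.2-fold higher, Slc4a4, a bicarbonate transporter, at least 23.5-fold and Aldoc, the brain aldolase, 17.6-fold, whereas Gfap, the filament of mature astrocytes, was detected on 4 of 11 clone arrays and no ES array and did not pass (0.77). In the oligodendrocyte list 7 of 12 rose and 5 did not pass. Beside Olig1 and Olig2 these included Bcas1 (16.4-fold) and Pdgfra (at least 3.27-fold), while Mbp, a myelin protein, differed by -0.42 and did not pass. In the neuronal list 9 of 21 rose, 2 fell (1 without clone 2) and 10 did not pass. Gap43, a growth cone protein, was at least 59.3-fold and Map2, a dendritic microtubule protein, 35.9-fold higher. Stmn2, a microtubule regulator of neurons, lay between 4.37 and 4.93 (median 4.56) on the clone arrays, against 10.35, 10.15 and 10.17 on the ES arrays, at least 28.5-fold lower (-5.66 ± 0.16, adjusted p = 0.000465). No clone array detected Stmn2 and every ES array did.

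In the forebrain list 5 of 17 were tested, of which Otx1 (5.80-fold) and Lhx2 rose, Otx2 fell and Dlx1 and Fezf2 did not pass. Lhx2 was not called without clone 2 (adjusted p = 0.134) or clone 3 (adjusted p = 0.0502). Among 8 tested genes of the midbrain, hindbrain and cord, Irx3 (3.36-fold), Irx5 (at least 4.80-fold) and Hoxa2 rose and 5 did not pass. In the Hox clusters 21 of 37 genes were tested: Hoxa5, Hoxa4 and Hoxa2 rose, 7 genes of the B, C and D clusters fell and 11 did not pass, 8 of them at background on both sides. Without clone 2, 3 fell. Hoxa5 lay between 10.16 and 10.65 (median 10.39) on the clone arrays, against 4.44, 4.36 and 4.43 on the ES arrays, at least 32.4-fold higher (6.02 ± 0.21, adjusted p = 0.000558). It was at background in ES and also in NS (4.29 to 4.44), and it was 1 of 6 genes called between the clones and NS (0.0574% of genes; clones minus NS 6.08, adjusted p = 0.0223). The bounds of the falling Hox genes were low, for example at least 2.69-fold for Hoxc13 and at least 1.78-fold for Hoxb7.

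**Figure D4:**
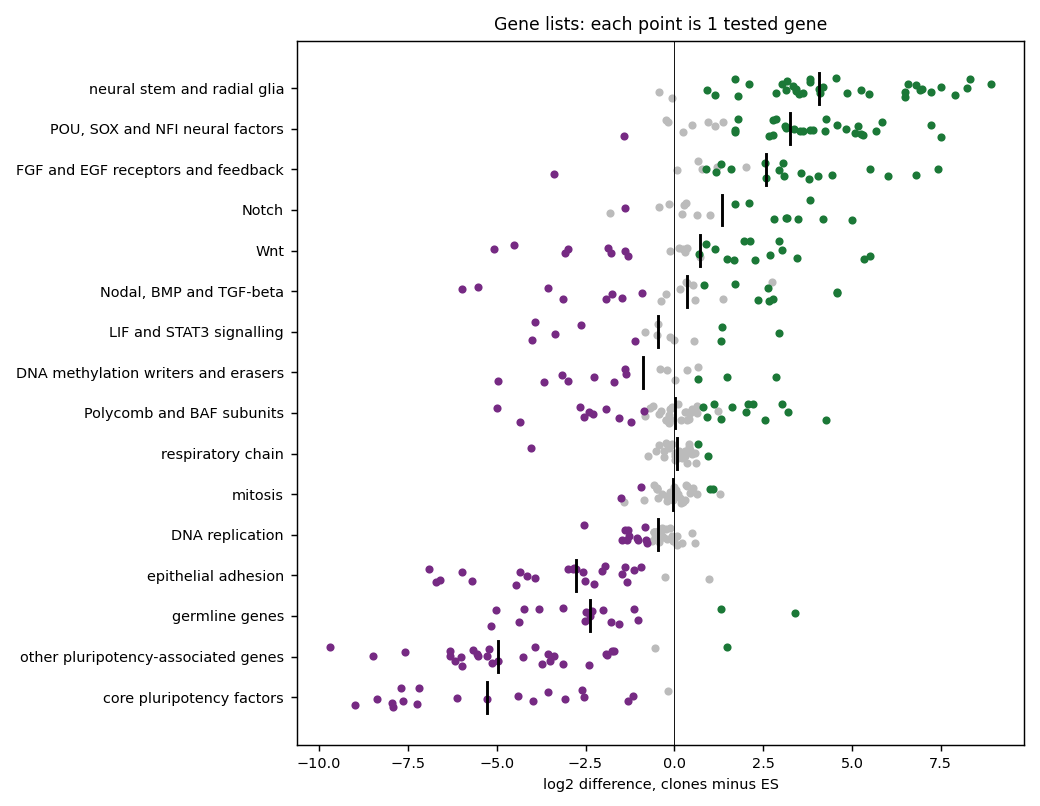
Log2 difference (clones minus ES) of each tested gene in 16 lists, with green points higher, purple points lower and grey points not passing, and a bar at each list's median. Medians run from -5.26 for core pluripotency factors to 4.07 for neural stem and radial glia genes, and lie near 0 for the mitosis and respiratory chain lists.

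ES cells grow as tight epithelial colonies held by E-cadherin, and they also express claudins and keratins. Of 35 listed genes 25 were tested, and 23 fell, none rose and Tjp1 and Cldn9 did not pass (median -2.76, or -1.83 with bounds). Cdh1, the E-cadherin gene, lay between 4.84 and 5.49 (median 5.14) on the clone arrays, against 11.08, 11.08 and 11.11 on the ES arrays, at least 51.3-fold lower (-5.97 ± 0.17, adjusted p = 0.000465), and 1 of 11 clone arrays was above background. Spint1, an inhibitor of membrane proteases, was at least 86.6-fold lower, Llgl2, a polarity protein, at least 66.9-fold, Cldn4, a claudin, at least 63.1-fold, Krt8, a keratin, at least 12-fold and Esrp1, the epithelial splicing regulator, at least 11.8-fold.

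Neural and mesenchymal adhesion genes rose for 9 of 20 tested, with 1 lower and 10 not passing, and without clone 5 the counts were 14 and 2. Cdh4, R-cadherin, lay between 12.14 and 12.74 (median 12.62) on the clone arrays, against 5.49, 4.82 and 4.86 on the ES arrays, at least 130-fold higher (7.44 ± 0.27, adjusted p = 0.000565), with 1 ES array above background. Nrcam was at least 16.7-fold, Cdh13, T-cadherin, at least 15.3-fold and Cntn1, contactin, at least 14.3-fold higher, whereas Itga3, an integrin, was at least 4.27-fold lower. In the list of fibroblast and mesenchyme genes 30 of 36 were tested, and 13 of these were at background in both the clones and ES. There 2 rose (Col6a1 and Pdgfra, 6.67%) and 6 fell (20%), against 21.5% and 22.5% of all genes. Fn1, fibronectin, was 10.0-fold lower (-3.33 ± 0.24) and Thy1 at least 4.50-fold lower.

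Among enzymes that write, remove or read DNA methylation, 8 of 16 tested genes fell, 3 rose and 5 did not pass (21 listed). Without clone 2, 1 rose. Dnmt3l, the cofactor of the de novo methyltransferases, lay between 4.36 and 4.66 (median 4.56) on the clone arrays, against 9.52, 9.40 and 9.52 on the ES arrays, at least 17-fold lower (-4.95 ± 0.17). Tet1, which oxidises methylcytosine, lay between 6.49 and 8.19 (median 7.27) on the clone arrays, against 11.34, 10.77 and 10.75 on the ES arrays, 12.6-fold lower (-3.66 ± 0.56, adjusted p = 0.0108), and Dnmt3b was 8.94-fold lower (-3.16 ± 0.18, adjusted p = 0.001). No array of the clones reached ES for these 3 genes. Dnmt1 and Uhrf1, which maintain methylation, differed by 0.01 and -0.41 and did not pass.

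Of the Polycomb and BAF chromatin complexes, 12 of 46 tested genes rose, 10 fell and 24 did not pass, with a median of 0.02. These shares, 26.1% higher and 21.7% lower, were near those over all genes (21.5% and 22.5%), so the count sets the list apart in neither direction, and the members below are single genes. In the Polycomb group Cbx7, the chromodomain subunit of ES cells, was at least 30.2-fold lower, Epop 20.4-fold, Mtf2 6.31-fold, Rybp 5.83-fold and Phc1 5.33-fold lower. Bmi1, a ring finger subunit needed for neural stem cell renewal, was at least 7.82-fold higher, Yaf2, the paralog of Rybp, 8.17-fold and Phc2, the paralog of Phc1, 5.89-fold higher. The catalytic subunit Ezh2 (0.11) and Rnf2 (-0.13) did not pass. In the BAF group the ATPase gene Smarca2 (Brm) lay between 10.67 and 11.07 (median 10.91) on the clone arrays, against 6.65, 6.44 and 6.73 on the ES arrays, 19.2-fold higher (4.26 ± 0.21, adjusted p = 0.000772), whereas its paralog Smarca4 (Brg1) differed by -0.16 and did not pass. Smarcd3 was 4.63-fold and Smarcc2 4.07-fold higher, and Smarcd2 4.88-fold lower.

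Ccnd1, cyclin D1, lay between 14.12 and 14.74 (median 14.30) on the clone arrays, against 10.96, 10.86 and 10.85 on the ES arrays, 11.1-fold higher (3.47 ± 0.24, adjusted p = 0.00157), and Ccnd2, cyclin D2, between 10.88 and 11.90 (median 11.31) on the clone arrays, against 4.92, 4.72 and 4.55 on the ES arrays, at least 62.7-fold higher (6.65 ± 0.36, adjusted p = 0.000896). All clone arrays lay above ES for both. Cdkn2c, an inhibitor of the cyclin D kinases, was 15.6-fold higher (3.96 ± 0.16), whereas Ccne1, cyclin E1, was 3.61-fold lower (-1.85 ± 0.35) and Cdkn1c at least 15.2-fold lower. In the list of cell cycle entry genes and inhibitors 9 of 25 tested genes rose (36%), 5 fell (20%) and 11 did not pass. Over all genes 21.5% rose and 22.5% fell. Without clone 2, Ccne1 was among those lost (adjusted p = 0.0695) and 1 gene fell. Cdkn1a, the p21 gene, differed by -0.54 ± 0.48 and did not pass (adjusted p = 0.415). Of 38 tested DNA replication genes 11 fell (28.9%, not far from the 22.5% of all genes), none rose and 27 did not pass (median -0.47). Orc1 was 5.84-fold and Cdt1 2.77-fold lower. Without clone 2, 3 fell. Of 31 tested mitosis genes 2 rose, 2 fell and 27 did not pass (median -0.03). Without clone 2 none of the 4 was called, and without clone 5, 4 genes rose.

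Socs2 and Socs3, feedback inhibitors induced by STAT3, were 16-fold (-4.00 ± 0.64) and 15.1-fold (-3.92 ± 0.31) lower, Pim3 was 6.23-fold and Bcl3 at least 6.19-fold lower. Jak2, a kinase of the JAK family, was 7.68-fold and Stat3 itself 2.55-fold higher, and the receptor genes Lifr (-0.49) and Il6st (0.00) did not pass. Over the LIF list, 3 of 14 tested genes rose (21.4%), 5 fell (35.7%) and 6 did not pass, against 21.5% and 22.5% of all genes. The share of rising genes was thus that of all genes.

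Receptors and feedback targets of FGF and EGF signalling rose for 17 of 23 tested genes, with 1 lower and 5 not passing (33 listed, median 2.58, or 2.31 with bounds). The gene that fell was Fgf4, the FGF made by ES cells themselves, at least 5.94-fold lower. Fgfr3 was at least 7.16-fold higher (adjusted p = 0.0409), and Fgfr1 differed by 0.67 and did not pass. Dusp6 lay between 12.75 and 13.84 (median 13.17) on the clone arrays, against 7.23, 7.22 and 7.20 on the ES arrays, and these levels did not overlap. Egr1, an immediate early gene, was at least 170-fold, the ETS factors Etv1 at least 34.9-fold and Etv4 21.5-fold, and Phlda1 13.8-fold higher.

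Of 25 tested genes of Nodal, BMP and TGF-beta signalling 8 rose and 8 fell (32% each, against 21.5% and 22.5% of all genes). The other 9 did not pass, and without clone 2, 5 fell. Nodal, a ligand of the early embryo, lay between 4.33 and 5.00 (median 4.69) on the clone arrays, against 10.51, 10.78 and 10.66 on the ES arrays, at least 38.3-fold lower (-5.97 ± 0.18), with its co-receptor Tdgf1 and its inhibitors Lefty1 (at least 5.04-fold) and Lefty2 lower too. Bmpr1b, a BMP receptor, was at least 11.8-fold and Smad5, which carries the BMP signal, 6.22-fold higher by its brightest probe. The mean of the Smad5 probes gave 1.23 and did not pass (adjusted p = 0.105). In the Notch list 9 of 18 tested genes rose, 1 fell and 8 did not pass (median 1.35, or 0.80 with bounds). The ligand Dll1 was at least 9.61-fold, the receptor Notch1 4.28-fold and the targets Hes5 at least 10.7-fold, Hey1 8.88-fold and Nrarp 9.06-fold higher, and Dner, another Notch ligand, was 32.1-fold higher. The falling gene was Jag2, at least 1.47-fold lower, which was not called without clone 2 (adjusted p = 0.0562), and without clone 5, 2 genes fell.

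In the Wnt list 14 of 28 tested genes rose, 8 fell and 6 did not pass, and without clone 2, 6 rose. The ligands Wnt7a (at least 26.9-fold), Wnt5a (at least 25.6-fold) and Wnt7b (10.9-fold) rose. The secreted antagonists Sfrp1 (at least 28.1-fold), Dkk3 (at least 13.3-fold) and Notum (at least 5.23-fold) fell, although the Sfrp1 call was lost without clone 2 (adjusted p = 0.0782) and a further Sfrp1 probe was detected on 4 clone arrays. Axin2, a feedback target of the pathway, was 4.38-fold higher (adjusted p = 0.0137), and not called without clone 2 (adjusted p = 0.0559). Guidance genes rose for 9 of 23 tested, with 4 lower (2 without clone 2) and 10 not passing: Epha5 at least 13-fold, Sema6d at least 10.5-fold and Nrp1 at least 10.2-fold higher, and Slit2 at least 5.93-fold lower.

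In glycolysis and hypoxia 2 of 23 tested genes rose, 3 fell and 18 did not pass, whereas 21.5% of all genes rose and 22.5% fell. The median of the list against ES was -0.80 for iNS2, -0.64 for iNS3 and 0.46 for iNS5. Without clone 5, 12 genes fell, and without clone 2, 1 rose. Pfkp, a phosphofructokinase, was 9.14-fold lower. In the threonine, serine and one-carbon list 7 of 16 fell (43.8%) and 2 rose (12.5%), and without clone 2, 3 fell and 1 rose. Asns, asparagine synthetase, was 5.54-fold and Gcat, which completes threonine breakdown, 4.35-fold lower. In cholesterol and fatty acid synthesis 6 of 23 rose (26.1%, near the 21.5% of all genes) and 1 fell (4.35%, against 22.5%). Fads2, a fatty acid desaturase, was 4.64-fold higher, and without clone 2, 3 rose and 0 fell. Of 33 tested respiratory chain genes 30 did not pass, 2 rose and 1 fell, and without clone 2 none rose. The lower gene was Cox7a1, a subunit of cytochrome c oxidase best known from muscle, with a difference of -4.03 ± 0.20.

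Imprinted genes fell for 9 of 20 tested (45%) and rose for 5 (25%), against 22.5% and 21.5% of all genes. Grb10, an adaptor of insulin and growth factor receptors, was at least 84.1-fold lower by its brightest probe, with another probe above background on 1 clone array, Phlda2 at least 59-fold and Igf2, the growth factor, at least 20.5-fold lower. Mest (13.6-fold), Peg3 (5.19-fold) and Gnas (4.77-fold) were higher, and Gnas was not called without clone 2 (adjusted p = 0.0628). In the MHC class I and interferon list 3 of 29 tested genes rose (10.3%), 5 fell (17.2%) and 21 did not pass, shares below those of all genes. B2m, the light chain of MHC class I, was 4.59-fold higher and Bst2 (tetherin) at least 15.2-fold lower. In the lysosome list 5 of 26 rose (19.2%), 4 fell (15.4%) and 17 did not pass, again no more than over all genes, with Npc1 3.91-fold higher and Ctsz at least 5.91-fold lower, and without clone 2 the counts were 2 and 1.

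Of 8 tested genes of myeloid, lymphoid and endothelial cells 5 fell and 3 did not pass: Laptm5, Pecam1 (at least 11.7-fold), Vwf (at least 8.88-fold), Eng (at least 4.83-fold) and Tek, all detected on every ES array. Pecam1 is also a surface protein of ES cells. The myeloid markers Ptprc, Csf1r, Aif1 and Itgam and the endothelial markers Cdh5, Kdr and Tie1 have probes on the array but were not detected on every array of any line, so they were not tested. Of primitive endoderm markers Gata6 was at least 1.77-fold lower and Dab2 was 3.93-fold higher, and Dab2 was not called without clone 2 (adjusted p = 0.0654) or clone 3 (adjusted p = 0.0547). The part of any such cells in the results was not tested. Xist, the RNA of the inactive X chromosome, was at background on all 14 clone and ES arrays and between 10.71 and 10.85 in NS. Eif2s3y, a gene of the Y chromosome, was bright in both, at 9.83 to 10.54 in the clones against 10.93, 10.86 and 11 in ES. It was called lower in the clones (-0.75), but not without clone 2 or clone 3. Kdm5d, also of the Y chromosome, was called higher (2.52).

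The F test over the 3 clones on single arrays called 6761 genes (64.7%), with technical spread only, and the median range between clone means was 0.38. Among genes called against ES, the widest ranges were those of Nupr1, a stress-induced factor (2.82), Igf2bp3, an RNA-binding protein (2.78), B3gat1, which builds the HNK-1 sugar (2.73), Sfrp1 (2.69), Plp2 (2.61), Pcp4l1 (2.5), Acot10 (2.44) and Chst2 (2.41). Nupr1 measured 5.47 to 6.13 in iNS2, 5.26 to 5.48 in iNS3 and 8.10 to 8.27 in iNS5, against 12.15, 12.23 and 12.27 in ES. B3gat1 was lowest in iNS2 (8.49 to 8.70), middle in iNS5 (9.94 to 10.12) and highest in iNS3 (11.30 to 11.35), against 4.58, 4.86 and 4.52 in ES. In all 8 genes every clone stayed on 1 side of ES, as in every called gene. Without clone 2, Nupr1 (adjusted p = 0.0699), Sfrp1, Igf2bp3, Pcp4l1 (adjusted p = 0.106) and Acot10 (adjusted p = 0.0542) were no longer called.

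Among genes with large mean differences that did not pass, Ifitm3, an interferon-induced membrane protein that is bright in ES cells (12.89, 13.02 and 12.95), measured 11.51 to 11.66 in iNS2, 5.67 to 5.92 in iNS3 and 8.29 to 8.54 in iNS5 (-4.35 ± 2.33, adjusted p = 0.203). All clone arrays were below ES, by very different amounts. Its neighbour in the family, Ifitm1, kept the same order of clones (11.06 to 11.33, 7.42 to 7.69 and 9.16 to 9.31), and was called without clone 2 (adjusted p = 0.0358). Slc2a3 measured 7.69 to 8.09 in iNS2, 7.49 to 7.64 in iNS3 and 10.64 to 10.75 in iNS5, against 13.64, 13.65 and 13.68 in ES (-4.97 ± 1.40, adjusted p = 0.0508), and it was called without clone 5 (adjusted p = 0.00158). Ramp1, a co-receptor of the CGRP peptide, was bright in iNS2 and iNS5 (11.62 to 11.84) and lower in iNS3 (7.12 to 7.67), against 4.77, 4.46 and 4.51 in ES (5.68 ± 2.00, adjusted p = 0.0867), and it was called without clone 3 (adjusted p = 0.00223). Flot2, Shfl, Echdc2 and Pdlim4 did not pass either, with differences of -5.06, -4.22, -3.94 and 3.57. Each was called with 1 clone left out: Flot2 without clone 3 (adjusted p = 0.00248), and Shfl (0.00158), Echdc2 (0.00159) and Pdlim4 (0.0445) without clone 5. With the mean of all tested probes of a gene in place of the brightest, Ifitm1 (-3.79) and Echdc2 (-2.96) were called with all 3 clones.

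For 14 genes (0.134% of those tested), picked after their values were seen, 1 clone was called above ES and another below it by treat: Acsl5, Apoe, Cdkn2a, Cgas, Ctsc, Ddit4l, Gm2a, Lxn, Mapt, Mmp14, Ntn5, Pde6a, Pdk1 and Tshz3. Cdkn2a, the locus of the p16 and p19ARF tumour suppressors, measured 10.78 to 10.92 in iNS2, 9.40 to 9.64 in iNS3 and 4.35 to 4.56 in iNS5, against 9.35, 9.30 and 9.32 in ES. It was thus above ES in iNS2 and at background on every iNS5 array. Lxn, a carboxypeptidase inhibitor, was likewise below ES in iNS5 and above it in iNS2. It measured 11.84 to 11.96 in iNS2, 10.97 to 11.10 in iNS3 and 5.00 to 5.31 in iNS5, against 8.97, 9.08 and 9.17 in ES. In iNS3, treat called Lxn above ES but did not call Cdkn2a. Ctsc, a lysosomal protease, was instead at background in iNS3 (4.31 to 4.43) and bright in iNS2 (10.56 to 10.66) and iNS5 (9.89 to 10.17), against 8.25, 8.57 and 8.49 in ES, and Ddit4l, an inhibitor of mTOR signalling, followed that pattern. Apoe, the lipid carrier, lay above ES in iNS5 (11.82 to 11.97) and below it in iNS2 (8.83 to 9.32) and iNS3 (9.25 to 9.46), against 10.61, 10.70 and 10.70 in ES. Gm2a, a lysosomal activator protein, was below ES in iNS2 and above it in iNS3 and iNS5.

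**Figure D5:**
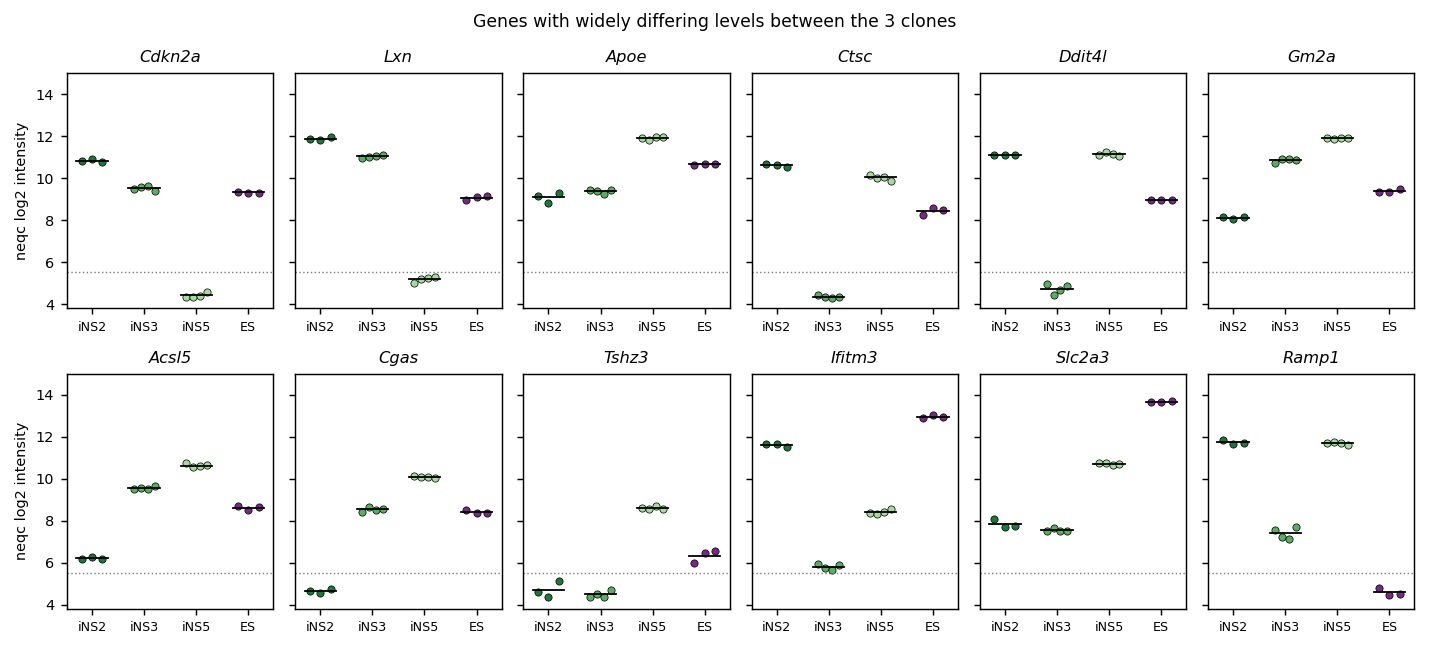
Log2 intensity of 12 genes chosen for their differences between clones, on each array of iNS2, iNS3, iNS5 and ES, with line means as bars and the detection floor dotted. The first 9 genes have 1 clone above and another below ES, and Ifitm3, Slc2a3 and Ramp1 stay on 1 side by very different amounts.

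On slide 3 alone, the differences of iNS5 from ES were 8.92 for Olig1, 8.24 for Slc1a3, 9.80 for Ptn, -8.26 for Nanog, -8.05 for Pou5f1, -9.69 for Chchd10 and -5.85 for Txnip, each within 0.2 of the difference over the 3 clones. Esrrb was at -8.01 on slide 3 and -7.23 over the clones, and Sox9 at 7.05 and 7.51. These values hold slide constant but rest on 1 clone. The same iNS5 and ES arrays also enter the difference over the 3 clones, so nearness of the values is partly built in. The genes shown were picked for large differences in that comparison or come from the fixed set.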

How the data were processed

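RNA of 21 arrays of 6 lines was measured on Illumina MouseWG-6 V2 bead arrays. The deposited scanner table gives a signal intensity and a detection p-value for each of 45281 probes on each array, not normalised per the file headers. The submitters' processing notes name GenomeStudio, and how its background was handled is not given in the sources used here. The authors' scaled intensity table served only as an alternative.

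Signals were background corrected, offset by 16, quantile normalised and put on the log2 scale with neqc (limma 3.58.1, R 4.3.3). Probes with 1 gene symbol that were detected (p under 0.01) on every array of at least 1 line were kept, the brightest probe standing for a gene (10449 genes). Arrays were averaged per line, and limma's lmFit and eBayes (2-sided, 2 residual and 2.17 prior degrees of freedom) compared the 3 clones with ES. Single clones were compared with ES by treat in a fit of all 21 arrays, which also gave the F test over clones. The number of arrays limits the precision.

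Genes were named by 6 rules: the 12 largest differences in each direction among called genes detected on all arrays; the 8 largest bounds in each direction; up to 6 called members per list and direction; a fixed set including Oct4, Nanog and Sox2; the 8 called genes with the widest range between clones; and the 8 largest differences that did not pass. Other genes named for not passing, further called list members such as Klf2 and Bcan, and the 14 with clones on both sides of ES, were chosen after their values were seen. The summary of named genes under alternatives covers only genes named by the rules. The members, the lists and the tests were chosen with earlier results of these data known. Alternatives changed the normalisation, filter, probe rule, slide, replicates and test. Upstream sequence came from RefSeq GRCm38.p6.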

Additional observations from a re-analysis of the deposited data

Results flagged for a closer look

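A single array stood away from the other arrays of its clone for 6 of the 80 combinations of gene and clone tested, and chance alone gives about 1 in 20. In iNS5, replicate 1 had a Nes level of 10.84, against 10.99 to 11.01 on the other 3 arrays, and replicate 3 had levels of 5.516 for Nanog (others 4.813 to 4.866), 5.912 for Dppa5a (5.564 to 5.617) and 4.49 for Sfrp1 (4.765 to 4.803). In iNS3, replicate 1 had a Pou5f1 level of 5.633 (others 5.187 to 5.241) and replicate 3 a Myc level of 5.998 (others 6.215 to 6.228). All but the Nes and Myc levels lie near the background.

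Among called genes, the clones stood farthest apart for 8, which were picked for that range, so no test is given for them. The F test over clones, with technical spread only, called 6761 of 10449 genes (64.7%). The range between clone means was 2.82 for Nupr1, 2.78 for Igf2bp3, 2.73 for B3gat1, 2.69 for Sfrp1, 2.61 for Plp2, 2.5 for Pcp4l1, 2.44 for Acot10 and 2.41 for Chst2.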

How the results depend on the processing

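Against 2248 higher and 2349 lower genes, single arrays as replicates gave 4308 and 4489, slide as a block 3749 and 3831, iNS5 against ES on the ES slide 4055 and 4430, and treat 828 and 851. Leaving out 1 clone gave 1203 to 2583 higher and 1169 to 2565 lower genes, lowest without clone 2. The other alternatives, single arrays left out included, gave 1981 to 2328 and 1941 to 2470. Tested against no change instead of 2-fold, 8394 genes were called in iNS2, 8548 in iNS3 and 8582 in iNS5.

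The median difference, imprinted genes, turned to 0.00914 with no detection filter. Jam2 turned to -0.57 with the mean of its probes. Sox2 turned to 0.33 on the ES slide, and without 1 clone it ran from -0.43 to 0.21. Xist, at background on both sides, gave -0.0164 with the mean of its probes and -0.0371 to 0.0659 with 1 clone or array left out. The cause was not tested for any of these. For the 293 genes named by the rules there were 8496 values under alternatives. Of these, 8140 kept direction and side of the threshold, 298 lost the call, 51 gained it and 7 turned direction. Throughout, 187 called genes kept their call.

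No paired analysis was possible because the labels give no replicate numbers that pair arrays across lines. Only 2 residual degrees of freedom stand behind the clone comparison, from 3 clones and 1 ES line. iNS2 and iNS3 share no slide with ES and are tied to it only through iNS5 and other lines. With slide as a block, 2523 genes were called in iNS2 (3299 without it), 2721 in iNS3 (3502) and 3499 in iNS5 (3511). Levels near background give only bounds.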
